A study of Mus musculus with 20 samples.

Results

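Lysosome and autophagy genes were followed in the livers of fasted mice that lacked enzymes of mitochondrial fatty acid import. The set was chosen by name, with earlier results of these data known. It holds 41 of the 56748 genes in the deposited count table: the transcription factors Tfeb and Tfe3, 5 lysosomal membrane proteins, 9 proteases, 7 lipid and glycan hydrolases, 3 soluble lysosomal proteins, 12 subunits of the vacuolar proton pump (V-ATPase) and 3 autophagy genes. Each of the 41 had 1 row in the table and passed the filter on low counts. The study measured total liver RNA by sequencing in 5 groups of 4 libraries, all from mice fasted for 24 h, to ask what the carnitine palmitoyltransferases CPT1 and CPT2 contribute to the liver transcriptome. The Cpt1DKO group is labelled as lacking CPT1A and CPT1B in the liver only, the Cpt2KO group as lacking CPT2, the TKO group as lacking all of these, and the Cpt2PparaDKO group as lacking CPT2 and PPAR, which the design text gives as Ppara. The Control group is labelled as carrying floxed alleles of the 3 carnitine palmitoyltransferase genes, and the design text calls the controls littermates. The sources used here do not give the driver of the deletions or the age and sex of the mice, and nothing says that the libraries of a group came from separate animals, so p-values measure the spread between libraries.

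Lysosomes are acidic organelles in which hydrolases degrade lipids, glycans and proteins, and the V-ATPase pumps in the protons that keep them acidic. Autophagy delivers cytoplasm to them in double-membraned vesicles, and in the liver it is a response to fasting. TFEB and TFE3 are related transcription factors that bind an E-box element, called the CLEAR element, in front of many lysosomal and autophagy genes, and mTORC1 on the lysosome keeps them out of the nucleus when nutrients are plentiful. PPARα is a fatty acid sensor that drives the fasting programme of the liver, and autophagy genes are among its known targets in mouse liver.

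The CLEAR element holds the letters CACGTG, and a frequent form of it is the 8-letter palindrome TCACGTGA. Both read the same on either strand, and every TCACGTGA contains a CACGTG. RefSeq promoters of the mouse build GRCm38.p6, which run from 250 bases before to 50 bases after each start, were found for 34 of the 41 members. CACGTG occurred in a promoter of 11 of these 34 genes (32.4%, exact 95% binomial interval 17.4 to 50.5%), and in 26.8% of their 41 promoters against 7.15% of the 32851 promoters of all genes. TCACGTGA occurred in 7 of the 34 (20.6%), and in 17.1% of their promoters against 0.974% of all promoters. In 124 promoters of the other pathway genes described below, CACGTG occurred in 21.8% and TCACGTGA in 7.26%. A match is a description of letters in this window and not a binding site. The following 60-base windows are shown because they hold the 8-letter form, with CACGTG in capitals, 5′ to 3′ on the gene's own strand.
Mcoln1, chr8:3500447-3500506, plus strand: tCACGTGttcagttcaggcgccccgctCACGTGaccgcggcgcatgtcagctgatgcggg
Ctsa, chr2:164833742-164833801, plus strand: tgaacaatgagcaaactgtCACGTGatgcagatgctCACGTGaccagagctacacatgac
Ctsd, chr7:142387893-142387952, minus strand: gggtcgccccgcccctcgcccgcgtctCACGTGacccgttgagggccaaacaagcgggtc
Gla, chrX:134601184-134601243, minus strand: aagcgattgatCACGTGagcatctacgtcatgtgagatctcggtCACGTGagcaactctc
Atp6v0d1, chr8:105566035-105566094, minus strand: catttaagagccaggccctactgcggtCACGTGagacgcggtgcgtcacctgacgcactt
Atp6v0e, chr17:26676372-26676431, plus strand: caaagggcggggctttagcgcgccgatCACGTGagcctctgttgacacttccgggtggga
Atp6v1a, chr16:44139358-44139417, minus strand: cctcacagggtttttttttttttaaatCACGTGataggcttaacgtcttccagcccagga
The window of Lamp1 is shown beside them because it holds 4 copies of CACGTG, and Lamp1 is a member that fell in 3 of the mutant groups.
Lamp1, chr8:13159096-13159155, plus strand: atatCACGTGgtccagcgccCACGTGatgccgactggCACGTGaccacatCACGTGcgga
Ctsl, Glb1 and Atp6v0b also held CACGTG, without the 8-letter form. In Cpt2KO livers 6 of the 11 members with CACGTG were higher and 1 was lower than in Control, with a median log2 fold change of 0.45. Of the 23 members without it in these windows, 11 were higher and 1 was lower, with a median of 0.30. In Cpt2PparaDKO livers 7 of the 11 were higher and 1 lower, with a median of 0.37, and 12 of the 23 were higher and 3 lower, with a median of 0.36. Of all genes tested, 16.2% were higher and 17.2% lower in Cpt2KO livers, and 14.9% higher and 17.6% lower in Cpt2PparaDKO livers.

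The libraries held 14129595 to 20273303 counts, except 36452673 in Cpt2PparaDKO replicate 1. Levels are CPM, in which counts are scaled by library size and by a normalisation factor per library (TMM). The factors were 0.8411 to 0.9236 in Control libraries and 1.167 to 1.293 in Cpt2PparaDKO libraries. Small differences in level between groups, and whether their libraries overlap, therefore depend on these factors. Cpt1a averaged 155 CPM in Cpt1DKO livers, 1380 CPM in Cpt2KO livers, 137 CPM in TKO livers and 840 CPM in Cpt2PparaDKO livers, against 1040 CPM in Control livers. Cpt2 averaged 258, 131, 103 and 33.9 CPM in these mutant groups, against 249 CPM in Control, and Ppara averaged 73.2 CPM in Cpt2PparaDKO livers against 233 CPM in Control. Cpt2 was also lower in Cpt2PparaDKO than in Cpt2KO livers, so those 2 groups differ in the RNA of both targeted genes. Cpt1b RNA was not lower in the groups labelled as lacking CPT1B. It averaged 0.881 CPM in Cpt1DKO livers and 2.8 CPM in TKO livers, against 0.543 CPM in Control. The Cpt1DKO difference was not called (adjusted p = 0.34) and rested on 10 to 17 counts per library. Cpt1b was called higher in TKO livers (log2 fold change 2.37, SE 0.38, adjusted p = 0.000111). It was also higher in Cpt2KO livers, at 3.91 CPM (log2 fold change 2.86, SE 0.38, adjusted p = 9.44e-06), and TKO and Cpt2KO livers did not differ in it (adjusted p = 0.612). These are counts over the whole gene, the sources used here do not say which part of it was deleted, and the group names are those of the labels. Hepatocyte markers were abundant in every library, but the sum of 10 of them was 66500 CPM in Cpt2KO, 60200 CPM in TKO and 43000 CPM in Cpt2PparaDKO livers, against 108000 CPM in Control, and its part in the members' levels was not tested. In such bulk samples fewer cells of a type and less RNA per cell cannot be told apart. Xist was abundant in 2 libraries, Cpt2KO replicate 3 (981 CPM) and Cpt2PparaDKO replicate 4 (1270 CPM), and the other 18 had Y-linked RNA.

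The 41 genes moved most in the groups that lacked Cpt2. A member was called where its adjusted p was below 0.05 (edgeR quasi-likelihood test, Benjamini-Hochberg over 15669 genes). In Cpt2KO livers 21 members were higher and 3 lower than in Control (58.5% called, beside 33.4% of all genes tested), with a median log2 fold change of 0.31 where the median of all genes was -0.01. In Cpt2PparaDKO livers 23 were higher and 5 lower (68.3%, beside 32.5% of all genes, 14.9% higher and 17.6% lower), with a median of 0.37. In TKO livers 17 were higher and 5 lower (53.7%, beside 27.4% of all genes, 13% higher and 14.4% lower), with a median of 0.20. In Cpt1DKO livers Lipa, Atp6v1e1 and Atp6v0e were higher and none was lower (7.32%, beside 5.55% of all genes, 2.44% higher and 3.1% lower), with a median of 0.07. That count rested on single libraries: it was 0 without Cpt1DKO replicate 1, Control replicate 3 or Control replicate 4, 1 without Cpt1DKO replicate 2 or 4 or Control replicate 1 or 2, and 5 without Cpt1DKO replicate 3. The excess over the background lay in the rising direction: 51.2% of members rose in Cpt2KO livers beside 16.2% of all genes, and 7.32% fell beside 17.2% of all genes. The members were chosen with earlier results of these data known, so this excess is a description and not a test. The comparisons with Control share their Control libraries. Without the 2 libraries with abundant Xist, 10 members were called in Cpt1DKO livers, 24 in Cpt2KO livers, 22 in TKO livers and 24 in Cpt2PparaDKO livers. The calls lost were those of Asah1 in Cpt2KO livers and of Tfe3, Lamp1, Gla, Atp6v1h and Atp6ap1 in Cpt2PparaDKO livers.

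**Figure D1:**
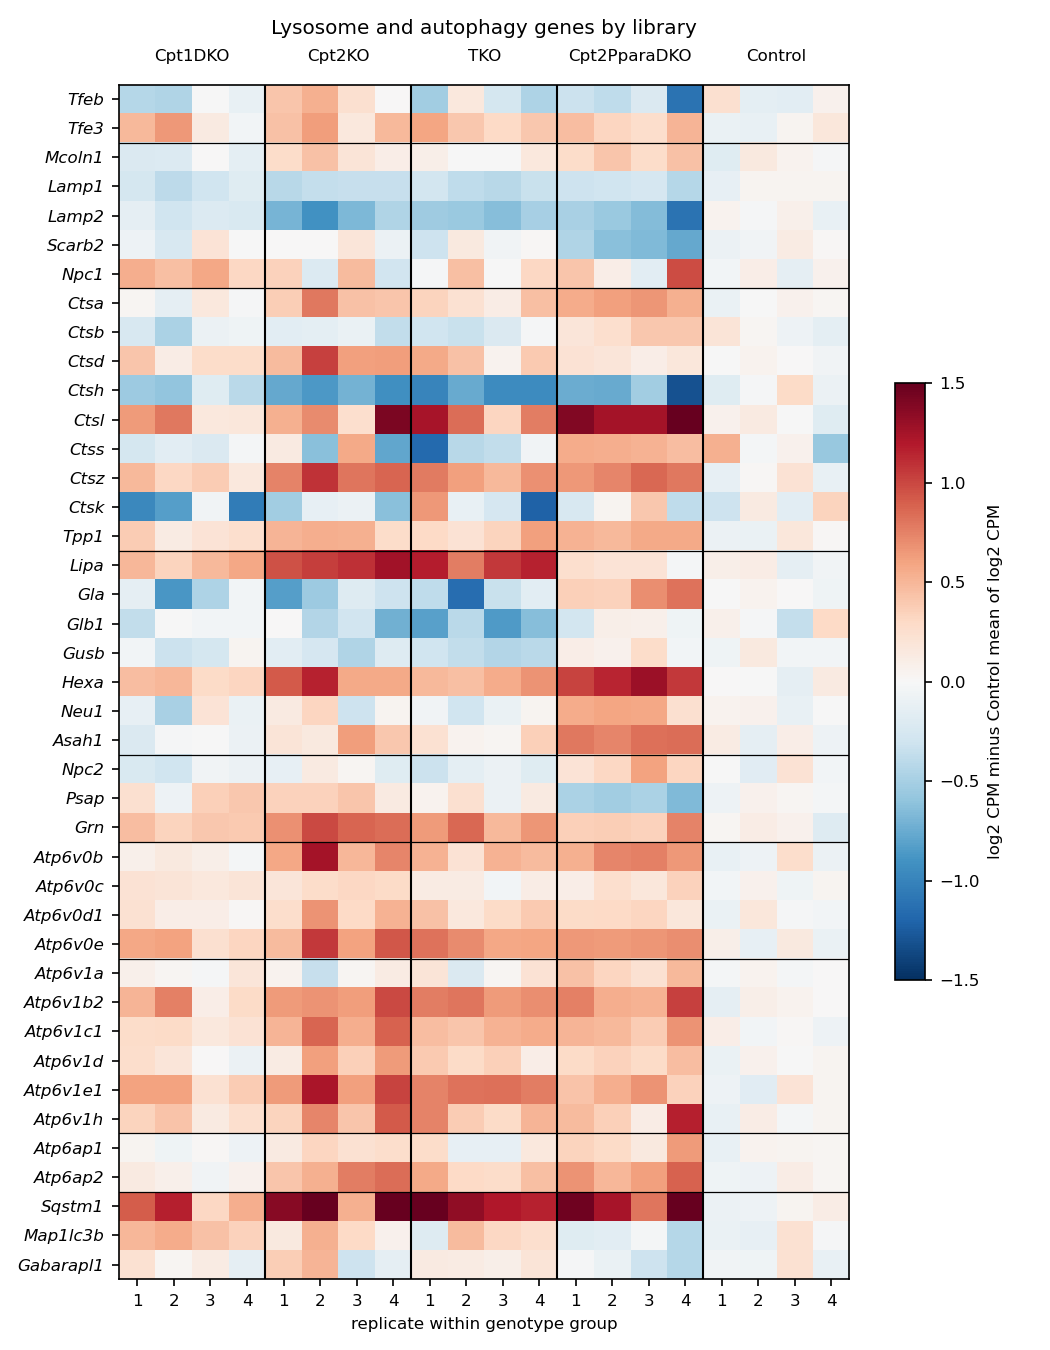
Each row is a member, ordered by role, and each column 1 of the 20 libraries; colour gives log2 CPM minus the mean log2 CPM of the 4 Control libraries, and values beyond 1.5 in either direction have the end colours. Rows of Sqstm1, Ctsz, Grn and Hexa are red in the Cpt2KO, TKO and Cpt2PparaDKO columns, as are those of most V-ATPase subunits but not Atp6v1a in Cpt2KO and TKO, Lamp2 and Ctsh are blue there, and Lipa is red in Cpt2KO and TKO and pale in Cpt2PparaDKO.

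The plot by library shows these directions in single libraries. The summed level of the 41 genes was 8550 ± 345 CPM in Cpt1DKO livers, 9960 ± 952 CPM in Cpt2KO livers, 9440 ± 805 CPM in TKO livers and 10200 ± 1420 CPM in Cpt2PparaDKO livers, against 7510 ± 252 CPM in Control livers (SD, n = 4 each). The lowest sum of any mutant library was 8250 CPM, and the highest Control sum was 7780 CPM. Abundant members weigh most in this sum, and much of its rise came from Ctsl and Sqstm1. Ctsl averaged 1220, 1530, 1560 and 2550 CPM in these mutant groups, in that order, against 884 CPM in Control. Sqstm1 averaged 775, 1220, 1200 and 1350 CPM, against 454 CPM in Control. Levels per length, as deposited FPKM, spanned a wide range in Control livers. Ctsk (0.767 FPKM), Gla (1.62 FPKM) and Tfeb (1.77 FPKM) were the lowest. Psap (261 FPKM), Lamp1 (216 FPKM) and Gabarapl1 (165 FPKM) were the highest, followed by Ctsz (143 ± 16 FPKM), Ctsl (134 ± 12 FPKM) and Sqstm1 (133 ± 9.38 FPKM), whose ranges overlap. The order changed little between groups: the largest shift was 8 places in Cpt2KO (Ctsh), 7 places in TKO (Ctsh), 10 places in Cpt2PparaDKO (Scarb2) and 4 places in Cpt1DKO livers (Lipa, Atp6v0e and Sqstm1).

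**Figure D2:**
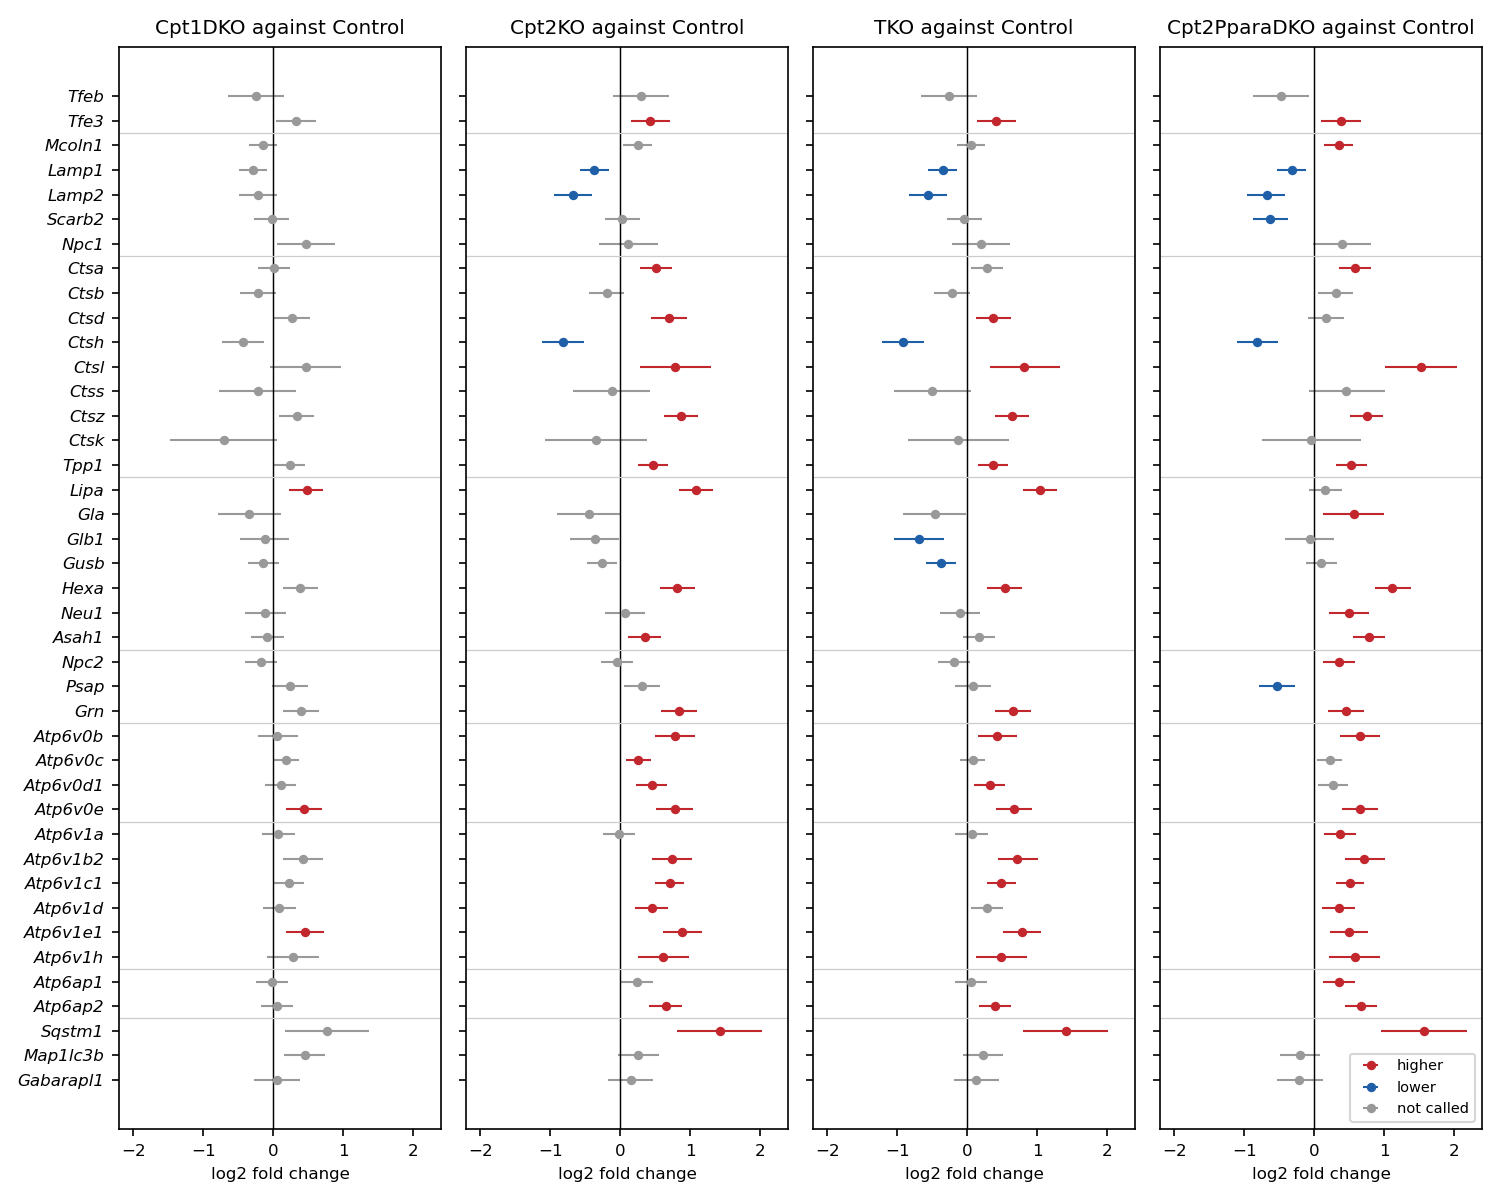
Points give the log2 fold change of each member in each mutant group against Control and bars its 95% interval from the edgeR fit; red points were called higher, blue points called lower and grey points were not called at adjusted p below 0.05. Cpt1DKO has 3 red points, all below 0.50, whereas Sqstm1 lies at 1.43, 1.41 and 1.57 in Cpt2KO, TKO and Cpt2PparaDKO, and Lamp1, Lamp2 and Ctsh are blue in those 3 groups.

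The plot of fold changes against Control orders the members by role, and the accounts that follow keep that order. Of the 2 regulators, Tfe3 was higher in the 3 groups that lacked Cpt2, and Tfeb was not called against Control in any group. Tfe3 had 37.9, 42.6, 29.8 and 26.4 CPM in Cpt1DKO livers and 36.8, 41.7, 30.2 and 38 CPM in Cpt2KO livers. It had 40.9, 35.8, 33.3 and 35.8 CPM in TKO livers and 37.3, 34, 32.5 and 38.5 CPM in Cpt2PparaDKO livers, against 25.3, 25, 28 and 30.5 CPM in Control livers. All 4 TKO and all 4 Cpt2PparaDKO libraries lay above every Control library, and 1 Cpt2KO library lay within the Control range. The log2 fold change was 0.43 (SE 0.14, adjusted p = 0.0188) in Cpt2KO, 0.42 (SE 0.14, adjusted p = 0.0252) in TKO and 0.39 (SE 0.14, adjusted p = 0.0336) in Cpt2PparaDKO livers. In Cpt1DKO livers it was 0.33 (SE 0.14, adjusted p = 0.165), not called. All 3 calls were marginal, since the Cpt2KO call was lost without Cpt2KO replicate 2 or Control replicate 1 (adjusted p up to 0.0653), the TKO call without TKO replicate 1, Control replicate 1 or Control replicate 2 (adjusted p up to 0.0836) and the Cpt2PparaDKO call without Cpt2PparaDKO replicate 1, Cpt2PparaDKO replicate 4, Control replicate 1 or Control replicate 2 (adjusted p up to 0.0821). Tfeb had 7.55, 7.45, 10.1 and 9.41 CPM in Cpt1DKO livers and 13.5, 14.7, 12 and 10.2 CPM in Cpt2KO livers. It had 7.09, 11.3, 8.44 and 7.37 CPM in TKO livers and 8.14, 7.8, 8.7 and 4.7 CPM in Cpt2PparaDKO livers, against 12, 9.18, 9.08 and 10.6 CPM in Control livers. The 4 Cpt2PparaDKO libraries lay below every Cpt2KO and every Control library, with replicate 4 the lowest, and the other mutant groups overlapped Control. Against Control the log2 fold change of Tfeb was 0.30 (SE 0.19, adjusted p = 0.25) in Cpt2KO and -0.48 (SE 0.19, adjusted p = 0.0617) in Cpt2PparaDKO livers, and neither passed. Between Cpt2PparaDKO and Cpt2KO livers Tfeb differed, by -0.78 (SE 0.19, adjusted p = 0.00512).

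The 5 membrane proteins did not share the rise of the set: 2 fell in Cpt2KO, 2 in TKO and 3 in Cpt2PparaDKO livers, and Mcoln1 alone rose, in Cpt2PparaDKO livers. LAMP1 and LAMP2 are the most abundant proteins of the lysosomal membrane, and an isoform of LAMP2 is the receptor of chaperone-mediated autophagy. Lamp1 had 488, 449, 478 and 518 CPM in Cpt1DKO livers and 441, 459, 464 and 462 CPM in Cpt2KO livers. It had 487, 451, 440 and 468 CPM in TKO livers and 475, 478, 495 and 436 CPM in Cpt2PparaDKO livers, against 541, 606, 604 and 603 CPM in Control livers. In these scaled levels every mutant library lay below every Control library. For Cpt2PparaDKO livers that order rests on the normalisation factors. Per total counts, without these factors, their Lamp1 was higher than in Control. Cpt2PparaDKO replicate 3 held 10583 Lamp1 counts among 17926295, and Control replicate 3 held 8708 among 17160129. Lamp1 was lower in Cpt2KO (log2 fold change -0.37, SE 0.10, adjusted p = 0.0068), TKO (log2 fold change -0.35, SE 0.10, adjusted p = 0.0116) and Cpt2PparaDKO livers (log2 fold change -0.32, SE 0.10, adjusted p = 0.0168), and its -0.28 in Cpt1DKO livers did not pass (adjusted p = 0.0953). The Cpt2PparaDKO call was lost without Cpt2PparaDKO replicate 4, Control replicate 2, Control replicate 3 or Control replicate 4 (adjusted p up to 0.0621), and also with upper-quartile factors, without the 2 libraries with abundant Xist and with only the groups compared. With no filter on low counts all 3 calls of Lamp1 were lost. Lamp2 had 700, 629, 668 and 659 CPM in Cpt1DKO livers and 474, 411, 483 and 566 CPM in Cpt2KO livers. It had 532, 524, 495 and 544 CPM in TKO livers and 549, 525, 493 and 358 CPM in Cpt2PparaDKO livers, against 798, 763, 814 and 713 CPM in Control livers. Again all mutant libraries lay below all Control libraries, most clearly where Cpt2 was lost. Lamp2 was 1.6-fold lower in Cpt2KO livers (log2 fold change -0.67, SE 0.13, adjusted p = 0.000459), 1.47-fold lower in TKO livers (log2 fold change -0.56, SE 0.13, adjusted p = 0.00302) and 1.6-fold lower in Cpt2PparaDKO livers (log2 fold change -0.68, SE 0.13, adjusted p = 0.000499).

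Scarb2 encodes LIMP-2, which carries glucocerebrosidase to lysosomes. Scarb2 had 247, 221, 299 and 258 CPM in Cpt1DKO livers and 262, 261, 296 and 245 CPM in Cpt2KO livers. It had 210, 287, 251 and 264 CPM in TKO livers and 190, 169, 164 and 153 CPM in Cpt2PparaDKO livers, against 245, 251, 283 and 263 CPM in Control livers. Its 4 Cpt2PparaDKO libraries lay below all other 16 libraries. The log2 fold change was -0.63 (SE 0.12, adjusted p = 0.000481) in Cpt2PparaDKO livers against Control and -0.66 (SE 0.12, adjusted p = 0.000394) against Cpt2KO livers, where in Cpt2KO livers against Control it was 0.03 with a 95% interval of -0.22 to 0.28. Mcoln1, the lysosomal calcium channel, was higher in Cpt2PparaDKO livers than in Control (log2 fold change 0.35, SE 0.10, adjusted p = 0.0102) and had 0.25 in Cpt2KO livers (adjusted p = 0.056). Npc1, the membrane exporter of lysosomal cholesterol, was not called in any comparison. Its Cpt1DKO libraries, at 263 to 318 CPM, lay above every Control library, at 194 to 228 CPM, and the other mutant groups overlapped Control.

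Of the 9 proteases, 5 rose and 1 fell in Cpt2KO livers, and 4 rose and 1 fell in both TKO and Cpt2PparaDKO livers, with none called in Cpt1DKO livers. Ctsd encodes cathepsin D, the main aspartic protease of lysosomes. Ctsd had 277, 225, 252 and 253 CPM in Cpt1DKO livers and 290, 423, 318 and 322 CPM in Cpt2KO livers. It had 309, 282, 217 and 274 CPM in TKO livers and 243, 236, 224 and 234 CPM in Cpt2PparaDKO livers, against 207, 217, 209 and 201 CPM in Control livers. All mutant libraries lay above all Control libraries, the lowest TKO library only just, and the 4 Cpt2KO libraries lay above the 4 Cpt2PparaDKO libraries. Ctsd rose in Cpt2KO livers (log2 fold change 0.70, SE 0.12, adjusted p = 0.000202) and in TKO livers (log2 fold change 0.37, SE 0.12, adjusted p = 0.0292), and had 0.17 in Cpt2PparaDKO livers (adjusted p = 0.319). The TKO call was lost without TKO replicate 1, TKO replicate 2, Control replicate 1 or Control replicate 4 (adjusted p up to 0.108). Ctsl had 1370, 1530, 984 and 994 CPM in Cpt1DKO livers and 1270, 1440, 1050 and 2350 CPM in Cpt2KO livers. It had 2070, 1580, 1100 and 1500 CPM in TKO livers and 2310, 2100, 2100 and 3690 CPM in Cpt2PparaDKO livers, against 918, 968, 874 and 776 CPM in Control livers. Cathepsin L, a cysteine protease, was above the Control range in all 16 mutant libraries, and reached its highest level in Cpt2PparaDKO replicate 4. Ctsl was 2.89-fold higher in Cpt2PparaDKO livers (log2 fold change 1.53, SE 0.25, adjusted p = 9.57e-05), against 0.79 (adjusted p = 0.0153) in Cpt2KO and 0.82 (adjusted p = 0.0151) in TKO livers. The Cpt2KO call was lost without Cpt2KO replicate 4 (adjusted p = 0.0984) and the TKO call without TKO replicate 1 (adjusted p = 0.0679).

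Ctsz had 292, 260, 273 and 233 CPM in Cpt1DKO livers and 350, 441, 363 and 383 CPM in Cpt2KO livers. It had 359, 319, 292 and 337 CPM in TKO livers and 328, 347, 378 and 360 CPM in Cpt2PparaDKO livers, against 192, 212, 242 and 193 CPM in Control livers. Cathepsin Z, a carboxypeptidase, was above the whole Control range in Cpt2KO, TKO and Cpt2PparaDKO livers. It rose by 0.87 (SE 0.12, adjusted p = 9.6e-06), 0.64 (SE 0.12, adjusted p = 0.000351) and 0.75 (SE 0.12, adjusted p = 6.21e-05) on the log2 scale in these 3 groups. Ctsa, the protective protein of neuraminidase and β-galactosidase, rose by 0.51 in Cpt2KO and 0.59 in Cpt2PparaDKO livers (adjusted p = 0.0012 and 0.000411). Tpp1, a tripeptidyl peptidase, rose by 0.47, 0.37 and 0.53 in Cpt2KO, TKO and Cpt2PparaDKO livers (adjusted p = 0.00184, 0.0129 and 0.000705). Ctsh, an aminopeptidase, went the other way. Ctsh had 171, 166, 220 and 188 CPM in Cpt1DKO livers and 147, 137, 152 and 132 CPM in Cpt2KO livers. It had 125, 148, 130 and 130 CPM in TKO livers and 149, 148, 174 and 101 CPM in Cpt2PparaDKO livers, against 219, 246, 305 and 235 CPM in Control livers. The 3 groups without Cpt2 lay wholly below Control. Ctsh was lower in Cpt2KO (log2 fold change -0.82, SE 0.14, adjusted p = 0.000173), TKO (log2 fold change -0.92, SE 0.14, adjusted p = 9.27e-05) and Cpt2PparaDKO livers (log2 fold change -0.81, SE 0.14, adjusted p = 0.000241), and its -0.43 in Cpt1DKO livers did not pass (adjusted p = 0.0824).

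Ctsb had 398, 338, 441 and 451 CPM in Cpt1DKO livers and 423, 425, 439 and 364 CPM in Cpt2KO livers. It had 381, 374, 404 and 463 CPM in TKO livers and 534, 558, 624 and 621 CPM in Cpt2PparaDKO livers, against 536, 479, 447 and 426 CPM in Control livers. Cathepsin B, an abundant cysteine protease, was not called against Control in any group, and the 4 Cpt2PparaDKO libraries lay above the 4 Cpt2KO libraries. That difference passed (log2 fold change 0.50, SE 0.12, adjusted p = 0.00512). Ctss and Ctsk, which are prominent in macrophages and osteoclasts, were not called in any comparison. Ctss lay at 34.1 to 36.3 CPM in the 4 Cpt2PparaDKO libraries and at 16.7 to 36 CPM in Control. Ctsk did not pass 2 CPM in any library.

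The lipid and glycan hydrolases divided by group rather than moving together. Lipa encodes lysosomal acid lipase, which frees fatty acids and cholesterol from lipids delivered to lysosomes, and in GRCm39 it lies at chr19:34469718-34504874, minus strand. Lipa had 308, 275, 304 and 325 CPM in Cpt1DKO livers and 422, 446, 466 and 519 CPM in Cpt2KO livers. It had 490, 370, 452 and 484 CPM in TKO livers and 259, 251, 250 and 213 CPM in Cpt2PparaDKO livers, against 231, 234, 198 and 209 CPM in Control livers. The Cpt2KO and TKO libraries were the highest, the Cpt1DKO libraries lay between them and Control, and the Cpt2PparaDKO libraries overlapped Control. Lipa was 2.13-fold higher in Cpt2KO livers (log2 fold change 1.09, SE 0.12, adjusted p = 1e-06) and 2.06-fold higher in TKO livers (log2 fold change 1.04, SE 0.12, adjusted p = 3.06e-06). In Cpt1DKO livers it was 1.39-fold higher (log2 fold change 0.48, SE 0.12, adjusted p = 0.0209), a call lost without Cpt1DKO replicate 1, Cpt1DKO replicate 4, Control replicate 3 or Control replicate 4 (adjusted p up to 0.0696). In Cpt2PparaDKO livers the log2 fold change was 0.16 with a 95% interval of -0.08 to 0.40. Lipa was also higher in Cpt2KO than in Cpt1DKO livers (log2 fold change 0.61, SE 0.12, adjusted p = 0.00163), and it was the 1 member called in TKO against Cpt1DKO livers (log2 fold change 0.57, SE 0.12, adjusted p = 0.00851, 4.65% of all genes called, 2.6% higher and 2.06% lower).

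**Figure D3:**
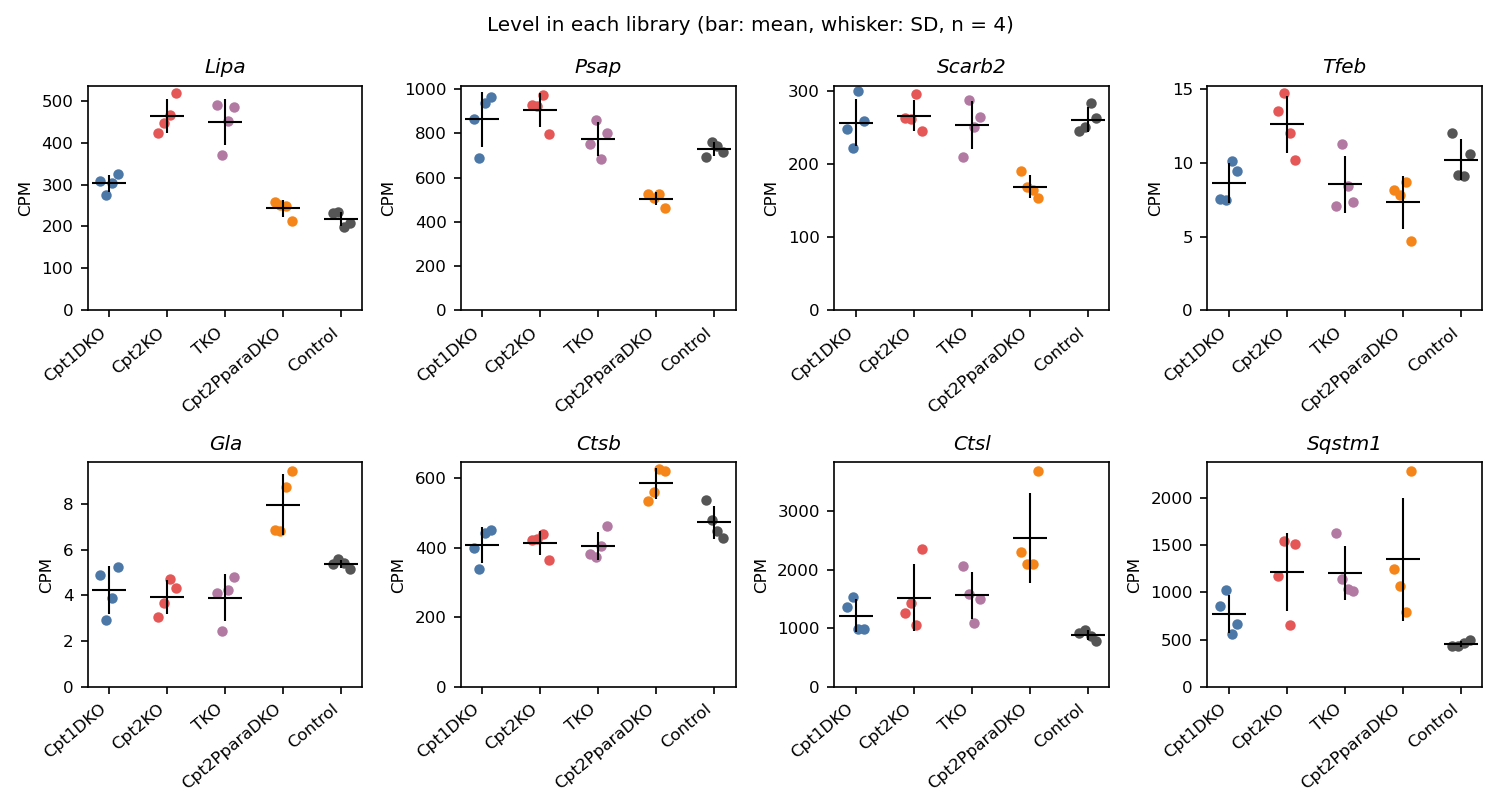
Points give CPM in each library of 8 members for the 5 groups, with bars at the group mean and whiskers of 1 SD (n = 4), on axes that start at 0. The Cpt2PparaDKO libraries of Psap and Scarb2 lie below all other groups and those of Gla above them, Lipa is high in Cpt2KO and TKO livers, and Sqstm1 spreads widely within the mutant groups.

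The plot of levels by library includes Gla, α-galactosidase A, which removes terminal galactose from glycosphingolipids. Gla had 4.9, 2.94, 3.91 and 5.24 CPM in Cpt1DKO livers and 3.04, 3.68, 4.72 and 4.32 CPM in Cpt2KO livers. It had 4.12, 2.43, 4.25 and 4.8 CPM in TKO livers and 6.87, 6.82, 8.74 and 9.47 CPM in Cpt2PparaDKO livers, against 5.36, 5.6, 5.41 and 5.15 CPM in Control livers. The Cpt2PparaDKO libraries lay above and the Cpt2KO and TKO libraries below every Control library. The log2 fold changes in Cpt2KO (-0.45, adjusted p = 0.122) and TKO livers (-0.46, adjusted p = 0.126) did not pass. That in Cpt2PparaDKO livers did (log2 fold change 0.57, SE 0.21, adjusted p = 0.0438), but it was lost without Cpt2PparaDKO replicate 3, Cpt2PparaDKO replicate 4, Control replicate 1, Control replicate 2, Control replicate 3 or Control replicate 4 (adjusted p up to 0.104). Hexa had 60.5, 61.8, 53.8 and 55.1 CPM in Cpt1DKO livers and 83.2, 98, 65.1 and 65.2 CPM in Cpt2KO livers. It had 61.3, 59.9, 64.8 and 70.2 CPM in TKO livers and 88.7, 97, 107 and 91.6 CPM in Cpt2PparaDKO livers, against 44.2, 43.7, 39.9 and 48.3 CPM in Control livers. Hexa, the α subunit of β-hexosaminidase, lay above Control in all 16 mutant libraries. Hexa rose in Cpt2KO (log2 fold change 0.82, SE 0.12, adjusted p = 2.91e-05), TKO (log2 fold change 0.54, SE 0.12, adjusted p = 0.00215) and Cpt2PparaDKO livers (log2 fold change 1.12, SE 0.12, adjusted p = 1.32e-06), and had 0.39 in Cpt1DKO livers (adjusted p = 0.0617).

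Asah1 had 28.1, 32.2, 32.6 and 30.8 CPM in Cpt1DKO livers and 37.3, 36.2, 50.3 and 43 CPM in Cpt2KO livers. It had 38.1, 33.7, 33.3 and 41.9 CPM in TKO livers and 56.4, 54, 57.8 and 58.1 CPM in Cpt2PparaDKO livers, against 35.4, 29.6, 34.8 and 31 CPM in Control livers. Acid ceramidase, encoded by Asah1, was highest in the 4 Cpt2PparaDKO libraries, above every library of the other groups. It rose by 0.79 (SE 0.11, adjusted p = 2.49e-05) in Cpt2PparaDKO and by 0.35 (SE 0.11, adjusted p = 0.0192) in Cpt2KO livers, and the Cpt2KO call was lost without Cpt2KO replicate 3 (adjusted p = 0.0649), which is 1 of the 2 libraries with abundant Xist. Neu1 had 48.4, 37.7, 60.8 and 49.2 CPM in Cpt1DKO livers and 58.1, 66.1, 42.7 and 54.5 CPM in Cpt2KO livers. It had 50.7, 42.9, 49.1 and 54.5 CPM in TKO livers and 77.7, 79.7, 79.2 and 62.4 CPM in Cpt2PparaDKO livers, against 54.7, 55.2, 49 and 52.5 CPM in Control livers. Neu1, the lysosomal sialidase, was above Control in all 4 Cpt2PparaDKO libraries, with replicate 4 nearest to Control, and rose there (log2 fold change 0.50, SE 0.14, adjusted p = 0.00867).

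Glb1 had 8.67, 11.2, 10.9 and 10.9 CPM in Cpt1DKO livers and 11.3, 8.26, 9.18 and 6.8 CPM in Cpt2KO livers. It had 6.36, 8.49, 6.2 and 7.23 CPM in TKO livers and 9.25, 11.9, 11.8 and 10.7 CPM in Cpt2PparaDKO livers, against 11.8, 11.1, 8.74 and 13.8 CPM in Control livers. The TKO libraries of Glb1, β-galactosidase, lay below every Control library, and the other groups overlapped Control. Glb1 fell in TKO livers (log2 fold change -0.69, SE 0.17, adjusted p = 0.00469). Gusb had 38.3, 31.3, 32.7 and 40.4 CPM in Cpt1DKO livers and 35.3, 32.9, 28.8 and 34.2 CPM in Cpt2KO livers. It had 31.9, 30.5, 29 and 29.7 CPM in TKO livers and 42.2, 41, 47.4 and 38.1 CPM in Cpt2PparaDKO livers, against 37.4, 43.4, 38.3 and 38.2 CPM in Control livers. Gusb, β-glucuronidase, lay below Control in all 4 Cpt2KO and all 4 TKO libraries. It fell in TKO livers (log2 fold change -0.38, SE 0.10, adjusted p = 0.01), a call lost without Control replicate 2 (adjusted p = 0.0579), and had -0.26 in Cpt2KO livers (adjusted p = 0.0594).

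Of the 3 soluble proteins, Grn rose in all 3 groups without Cpt2, and Psap and Npc2 were called against Control in Cpt2PparaDKO livers alone, in opposite directions. Grn had 551, 505, 528 and 525 CPM in Cpt1DKO livers and 642, 794, 729 and 712 CPM in Cpt2KO livers. It had 620, 724, 561 and 632 CPM in TKO livers and 513, 514, 507 and 669 CPM in Cpt2PparaDKO livers, against 406, 432, 416 and 348 CPM in Control livers. Progranulin, which Grn encodes and which binds prosaposin on its way to the lysosome, was above every Control library in all 16 mutant libraries. Grn rose in Cpt2KO (log2 fold change 0.84, SE 0.12, adjusted p = 2.82e-05), TKO (log2 fold change 0.66, SE 0.12, adjusted p = 0.000468) and Cpt2PparaDKO livers (log2 fold change 0.46, SE 0.12, adjusted p = 0.00728). Psap had 864, 689, 937 and 965 CPM in Cpt1DKO livers and 928, 925, 973 and 797 CPM in Cpt2KO livers. It had 753, 860, 683 and 802 CPM in TKO livers and 525, 507, 525 and 462 CPM in Cpt2PparaDKO livers, against 694, 761, 745 and 717 CPM in Control livers. Prosaposin, the precursor of the saposins that present sphingolipids to their hydrolases, was lowest in the 4 Cpt2PparaDKO libraries, below all other 16. Psap fell there against Control (log2 fold change -0.53, SE 0.12, adjusted p = 0.0025), where in Cpt2KO livers it had 0.31 against Control (adjusted p = 0.0569). Npc2, the soluble carrier that hands cholesterol to NPC1, was higher in Cpt2PparaDKO livers than in Control (log2 fold change 0.36, SE 0.11, adjusted p = 0.0166), a call lost without Control replicate 2 (adjusted p = 0.0504).

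Of the roles, the V-ATPase had the highest share of members called higher in Cpt2KO, TKO and Cpt2PparaDKO livers. Of its 12 members, 10 rose in Cpt2KO livers, 8 in TKO livers, 10 in Cpt2PparaDKO livers and 2 in Cpt1DKO livers, and none fell in any of these. The shares of all genes higher were 16.2%, 13%, 14.9% and 2.44% in these groups, in that order. The V-ATPase genes outside the set, given below, did not rise as a group. The median log2 fold changes of the 12 members were 0.15 in Cpt1DKO livers, 0.63 in Cpt2KO livers, 0.42 in TKO livers and 0.50 in Cpt2PparaDKO livers. Their summed level was 813 ± 51.9 CPM in Cpt1DKO livers, 1030 ± 117 CPM in Cpt2KO livers, 929 ± 48 CPM in TKO livers and 975 ± 69.9 CPM in Cpt2PparaDKO livers, against 704 ± 24.9 CPM in Control (SD, n = 4 each). The lowest mutant sum was 754 CPM and the highest Control sum 730 CPM. The pump has a membrane sector, V0, that conducts protons and a cytosolic sector, V1, that hydrolyses ATP. All 4 V0 members and 5 of 6 V1 members rose in Cpt2KO livers, and 2 of 4 V0 members and all 6 V1 members rose in Cpt2PparaDKO livers. Of the 2 accessory proteins, Atp6ap2, the (pro)renin receptor, rose by 0.65, 0.40 and 0.67 in Cpt2KO, TKO and Cpt2PparaDKO livers (adjusted p = 0.000147, 0.0101 and 0.00012). Atp6ap1 rose in Cpt2PparaDKO livers alone (log2 fold change 0.36, SE 0.11, adjusted p = 0.0164), a call lost without Control replicate 1 (adjusted p = 0.0501).

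Atp6v1e1 had 128, 127, 98.3 and 109 CPM in Cpt1DKO livers and 131, 196, 129 and 170 CPM in Cpt2KO livers. It had 141, 148, 149 and 143 CPM in TKO livers and 113, 122, 134 and 107 CPM in Cpt2PparaDKO livers, against 79.8, 74.6, 96.5 and 86.3 CPM in Control livers. Atp6v1e1, a stalk subunit of V1, was above every Control library in all 16 mutant libraries and highest in Cpt2KO replicate 2. It was 1.86-fold higher in Cpt2KO (log2 fold change 0.89, SE 0.13, adjusted p = 3.3e-05), 1.72-fold in TKO (log2 fold change 0.78, SE 0.13, adjusted p = 0.000195) and 1.41-fold in Cpt2PparaDKO livers (log2 fold change 0.50, SE 0.13, adjusted p = 0.0071). In Cpt1DKO livers the log2 fold change was 0.45 (SE 0.13, adjusted p = 0.0483), a call lost without Cpt1DKO replicate 1, Cpt1DKO replicate 2, Cpt1DKO replicate 4, Control replicate 1, Control replicate 2, Control replicate 3 or Control replicate 4 (adjusted p up to 0.163). Atp6v1b2 had 78.7, 93.6, 59.1 and 67.3 CPM in Cpt1DKO livers and 85.9, 88.5, 85.7 and 110 CPM in Cpt2KO livers. It had 94.5, 96.4, 85.9 and 89.4 CPM in TKO livers and 93.3, 80.4, 79.1 and 113 CPM in Cpt2PparaDKO livers, against 50.2, 58.8, 57.2 and 55.4 CPM in Control livers. Atp6v1b2, a nucleotide-binding subunit of V1, also lay above Control in every mutant library. It rose by 0.74 (SE 0.14, adjusted p = 0.000299) in Cpt2KO, 0.72 (SE 0.14, adjusted p = 0.000526) in TKO and 0.72 (SE 0.14, adjusted p = 0.000447) in Cpt2PparaDKO livers. Atp6v0e had 42.1, 42.8, 33.4 and 35.3 CPM in Cpt1DKO livers and 39.1, 58.7, 43 and 53.8 CPM in Cpt2KO livers. It had 49.8, 46.3, 42.1 and 42.4 CPM in TKO livers and 44.4, 44, 44.7 and 45.9 CPM in Cpt2PparaDKO livers, against 29.9, 25.9, 31.2 and 26.3 CPM in Control livers. Every mutant library of Atp6v0e, a small V0 subunit, lay above every Control library. It rose by 0.78 (SE 0.12, adjusted p = 5.94e-05), 0.67 (SE 0.12, adjusted p = 0.000387) and 0.66 (SE 0.12, adjusted p = 0.000365) in these 3 groups and by 0.44 (SE 0.12, adjusted p = 0.0393) in Cpt1DKO livers, where the call was lost without Cpt1DKO replicate 1, Cpt1DKO replicate 2, Control replicate 1, Control replicate 2, Control replicate 3 or Control replicate 4 (adjusted p up to 0.142).

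The catalytic subunit Atp6v1a stood apart from its partners: its log2 fold change was -0.02 in Cpt2KO livers (95% interval -0.25 to 0.21) and 0.07 in TKO livers (95% interval -0.17 to 0.30), and of the 4 mutant groups it rose against Control in Cpt2PparaDKO livers alone (log2 fold change 0.37, SE 0.11, adjusted p = 0.0154). Atp6v0b rose by 0.78 in Cpt2KO and 0.66 in Cpt2PparaDKO livers (adjusted p = 0.000167 and 0.000967), and Atp6v1c1 by 0.71, 0.49 and 0.51 in Cpt2KO, TKO and Cpt2PparaDKO livers (adjusted p = 1.82e-05, 0.00106 and 0.000569). Weaker calls in this role depended on single libraries. In TKO livers those of Atp6v0b, Atp6v0d1 and Atp6v1h were lost without TKO replicate 1, TKO replicate 3, Control replicate 1, Control replicate 2 or Control replicate 4 (adjusted p up to 0.0651), without TKO replicate 1, Control replicate 1 or Control replicate 4 (adjusted p up to 0.0858) and without TKO replicate 1, TKO replicate 2, TKO replicate 4, Control replicate 1, Control replicate 2, Control replicate 3 or Control replicate 4 (adjusted p up to 0.141). In Cpt2KO livers that of Atp6v0c was lost without Control replicate 1 (adjusted p = 0.0596). In Cpt2PparaDKO livers those of Atp6v1d and Atp6v1h were lost without Control replicate 1 (adjusted p = 0.0666) and without Cpt2PparaDKO replicate 4 (adjusted p = 0.0716). Atp6v0c has 2 annotated pseudogenes in the count table, and the sources used here do not say how reads shared with them were counted.

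Of the 3 autophagy genes, Sqstm1 rose and the 2 ubiquitin-like ATG8 genes were not called against Control in any group. Sqstm1 encodes p62, an autophagy receptor that is itself degraded by autophagy and that the transcription factor NRF2 also induces, and in GRCm39 it lies at chr11:50090193-50101654, minus strand. Sqstm1 had 850, 1020, 561 and 663 CPM in Cpt1DKO livers and 1170, 1540, 655 and 1510 CPM in Cpt2KO livers. It had 1630, 1140, 1040 and 1010 CPM in TKO livers and 1250, 1070, 793 and 2280 CPM in Cpt2PparaDKO livers, against 427, 431, 467 and 491 CPM in Control livers. All 16 mutant libraries lay above every Control library, and the mutant groups were widely spread, from 561 CPM in Cpt1DKO replicate 3 to 2280 CPM in Cpt2PparaDKO replicate 4. Sqstm1 was 2.69-fold higher in Cpt2KO (log2 fold change 1.43, SE 0.29, adjusted p = 0.000811), 2.65-fold in TKO (log2 fold change 1.41, SE 0.29, adjusted p = 0.00123) and 2.97-fold in Cpt2PparaDKO livers (log2 fold change 1.57, SE 0.29, adjusted p = 0.000418), and the 0.77 of Cpt1DKO livers did not pass (adjusted p = 0.121). In Cpt2KO and TKO livers these were the largest log2 fold changes of any member. In Cpt2PparaDKO livers Sqstm1 and Ctsl lay within their errors of each other, and without Cpt2PparaDKO replicate 4 they had 1.22 (SE 0.25) and 1.32 (SE 0.23).

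Map1lc3b had 256, 268, 246 and 231 CPM in Cpt1DKO livers and 201, 262, 224 and 190 CPM in Cpt2KO livers. It had 159, 253, 225 and 217 CPM in TKO livers and 160, 163, 178 and 135 CPM in Cpt2PparaDKO livers, against 170, 167, 213 and 180 CPM in Control livers. Map1lc3b, the LC3B protein that is joined to autophagosome membranes, was above every Control library in the 4 Cpt1DKO libraries, and below every Cpt2KO library in the 4 Cpt2PparaDKO libraries. Its log2 fold change in Cpt1DKO livers was 0.45 (SE 0.14, adjusted p = 0.0591), not called. Gabarapl1 had 395, 344, 367 and 307 CPM in Cpt1DKO livers and 438, 483, 273 and 307 CPM in Cpt2KO livers. It had 372, 368, 360 and 387 CPM in TKO livers and 335, 315, 273 and 251 CPM in Cpt2PparaDKO livers, against 325, 324, 397 and 312 CPM in Control livers. Gabarapl1, another ATG8 protein, overlapped between all mutant groups and Control. Its 95% intervals against Control were -0.27 to 0.38 in Cpt1DKO livers, -0.18 to 0.47 in Cpt2KO livers, -0.19 to 0.46 in TKO livers and -0.53 to 0.12 in Cpt2PparaDKO livers, so a change of the size seen for Sqstm1 lies outside all of them.

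Members differed in both directions between Cpt2PparaDKO and Cpt2KO livers, the groups that differ in Ppara and in the level of Cpt2 RNA. In Cpt2PparaDKO against Cpt2KO livers 8 members were higher and 8 lower (39% called, beside 24.4% of all genes tested, 12.1% higher and 12.2% lower), and the median was 0.01. Without the 2 libraries with abundant Xist the counts were also 8 and 8, with the calls of Ctsl and Map1lc3b lost. Fitted on these 2 groups alone, 3 members were higher and 5 lower. The 8 higher members were Gla, Ctsl, Ctsb, Asah1, Neu1, Npc2, Atp6v1a and Gusb, of which 4 are lipid and glycan hydrolases. The 8 lower members were Lipa, Psap, Tfeb, Scarb2, Ctsd, Map1lc3b, Atp6v1e1 and Grn. Lipa had 243 ± 20.9 CPM in Cpt2PparaDKO livers against 463 ± 41 CPM in Cpt2KO livers (SD, n = 4 each), 1.9-fold lower (log2 fold change -0.93, SE 0.12, adjusted p = 5.48e-06). Psap was 1.79-fold lower (log2 fold change -0.84, SE 0.12, adjusted p = 3.74e-05) and Ctsd 1.44-fold lower (log2 fold change -0.53, SE 0.12, adjusted p = 0.00347), with no overlap between the groups in either gene. Tfeb and Scarb2, given above, were 1.72-fold and 1.58-fold lower.

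Of the members that were higher in Cpt2PparaDKO than in Cpt2KO livers, Gla was 2.02-fold higher (log2 fold change 1.01, SE 0.21, adjusted p = 0.00145) and Asah1 1.36-fold higher (log2 fold change 0.44, SE 0.11, adjusted p = 0.00601), with no overlap. Ctsl (log2 fold change 0.74, SE 0.24, adjusted p = 0.0303) and Neu1 (log2 fold change 0.43, SE 0.14, adjusted p = 0.0261) overlapped between the groups. The call of Ctsl was lost without Cpt2KO replicate 1, Cpt2KO replicate 2, Cpt2KO replicate 3 or Cpt2PparaDKO replicate 4 (adjusted p up to 0.104), and that of Neu1 without Cpt2KO replicate 3, Cpt2KO replicate 4, Cpt2PparaDKO replicate 1, Cpt2PparaDKO replicate 2 or Cpt2PparaDKO replicate 3 (adjusted p up to 0.08). Gusb, Npc2 and Atp6v1a rose by 0.36, 0.40 and 0.39, and their calls were lost without Cpt2PparaDKO replicate 3 (adjusted p = 0.0575), without Cpt2PparaDKO replicate 3 (adjusted p = 0.0518) and without Cpt2KO replicate 2 (adjusted p = 0.0563). Among the lower members, Map1lc3b (log2 fold change -0.46, SE 0.14, adjusted p = 0.0183) lost its call without Cpt2KO replicate 2 or Cpt2PparaDKO replicate 4 (adjusted p up to 0.0736), Atp6v1e1 (log2 fold change -0.40, SE 0.13, adjusted p = 0.032) without Cpt2KO replicate 2, Cpt2KO replicate 4, Cpt2PparaDKO replicate 1, Cpt2PparaDKO replicate 2 or Cpt2PparaDKO replicate 4 (adjusted p up to 0.141), and Grn (log2 fold change -0.39, SE 0.12, adjusted p = 0.027) without Cpt2KO replicate 2, Cpt2PparaDKO replicate 1, Cpt2PparaDKO replicate 2 or Cpt2PparaDKO replicate 3 (adjusted p up to 0.0763). Outside Atp6v1a and Atp6v1e1, none of the 12 V-ATPase members was called, and their median was -0.07.

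**Figure D4:**
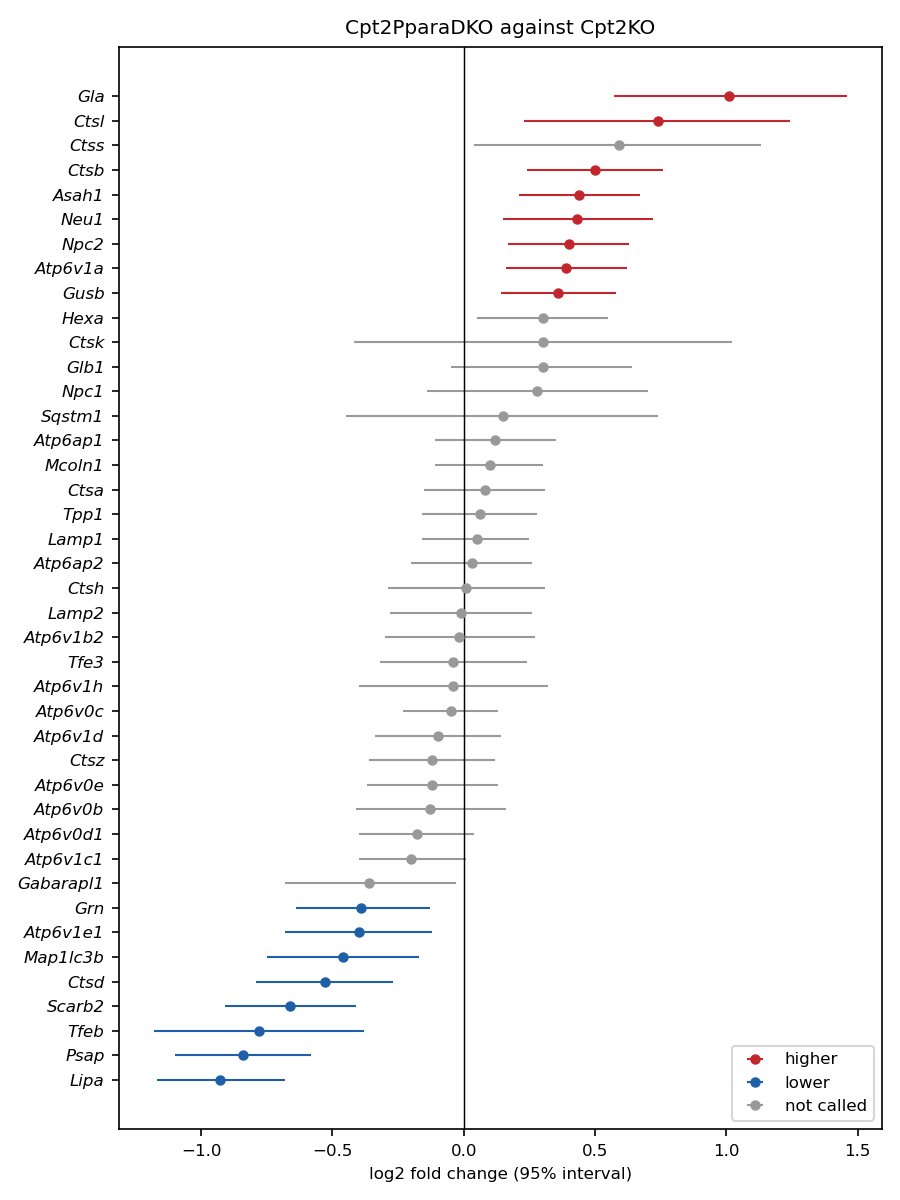
Members are ranked by log2 fold change in Cpt2PparaDKO against Cpt2KO livers, with 95% intervals from the edgeR fit; red points were called higher, blue points called lower and grey points were not called. Gla is at the top at 1.01 and Lipa at the bottom at -0.93, and V-ATPase subunits fill most of the middle.

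As the ranked plot shows, calls in both directions came from several roles. Markers of several cell types also differed in this comparison. The sum of 9 markers of lipid-associated macrophages was 257 CPM in Cpt2PparaDKO livers (range 240 to 284) against 149 CPM in Cpt2KO livers (range 106 to 175). Of these 9 markers, 6 were higher, beside 12.1% of all genes. Against Control, where the sum was 70.7 CPM (range 60.5 to 83.8), 8 of the 9 rose in Cpt2PparaDKO livers, and 4 rose and 1 fell in both Cpt2KO and TKO livers. Among all genes 14.9%, 16.2% and 13% were higher and 17.6%, 17.2% and 14.4% lower in Cpt2PparaDKO, Cpt2KO and TKO livers. None of the 9 was at 0 in any group as a whole. The sum of 11 resident Kupffer cell markers was 500 CPM in Cpt2PparaDKO livers (range 463 to 571), 390 CPM in Cpt2KO livers (range 217 to 626) and 406 CPM in Control livers (range 284 to 558), with none of the 11 called between them. Between Cpt2PparaDKO and Cpt2KO livers 1 of 10 hepatocyte markers was higher and 4 lower (median -0.38), 3 of 8 stellate cell markers were higher (median 0.29), and 2 of 5 tested monocyte and neutrophil markers were higher (median 1.38). In this comparison 12.1% of all genes were higher and 12.2% lower, and lists this short give only coarse shares. None of the tested endothelial, cholangiocyte and lymphocyte markers was called. Macrophages are rich in lysosomes, and the part of any of these cells in the members' levels was not tested.

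Cpt2KO livers were also compared with Cpt1DKO livers directly. In Cpt2KO against Cpt1DKO livers 14 members were higher and 1 lower (36.6% called, beside 14.1% of all genes tested, 7.41% higher and 6.71% lower), with a median of 0.31. The largest rises were Atp6v0b (log2 fold change 0.72, SE 0.14, adjusted p = 0.00155), Lipa and Atp6ap2 (log2 fold change 0.59, SE 0.11, adjusted p = 0.00152), and 6 of the 14 were V-ATPase subunits. The 1 fall was Lamp2 (log2 fold change -0.46, SE 0.13, adjusted p = 0.0238), a call lost without Cpt1DKO replicate 1, Cpt1DKO replicate 4 or Cpt2KO replicate 2 (adjusted p up to 0.085). Of the 15 calls, 7 held in every fit that left out 1 library, and 8 members were called without Cpt1DKO replicate 4 or without Cpt2KO replicate 2. Fitted on these 2 groups alone, 6 members were called.

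Between TKO and Cpt2KO livers no member passed the threshold. In TKO against Cpt2KO livers none of the 41 was called by edgeR or by DESeq2, 7 had an unadjusted p below 0.05, and 0.0511% of all genes were called (0.0319% higher and 0.0191% lower). The median of the members was -0.13, with 35 of the 41 below 0. These estimates come from the same libraries and are not independent, so the count of signs is not a test. For Lipa the 95% interval of the difference was -0.29 to 0.20, for Sqstm1 -0.62 to 0.58 and for Tfeb -0.96 to -0.16. A test of whether the effect of Cpt2 loss differed with and without Cpt1 called 1 member, Hexa (2.7% of all genes called, 1.42% above 0 and 1.28% below 0). The effect where Cpt1 was also absent minus the effect where it was present was -0.67 on the log2 scale (SE 0.17, adjusted p = 0.0398). Its level was 64.1 ± 4.58 CPM in TKO against 57.8 ± 3.96 CPM in Cpt1DKO livers, and 77.9 ± 15.9 CPM in Cpt2KO against 44 ± 3.41 CPM in Control livers (SD, n = 4 each). The estimate was below 0 for 32 of the 41 members, with a median of -0.30 beside 0.01 for all genes. The Hexa call was lost without Cpt1DKO replicate 1, Cpt1DKO replicate 2, Cpt1DKO replicate 4, Cpt2KO replicate 2, TKO replicate 1, TKO replicate 2, TKO replicate 3, Control replicate 1, Control replicate 2 or Control replicate 3 (adjusted p up to 0.0875).

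Of 129 other tested genes of the pathway, 28 rose and 27 fell against Control in Cpt2KO livers (21.7% and 20.9%, beside 16.2% and 17.2% of all genes). In TKO livers 22 rose and 27 fell (17.1% and 20.9%, beside 13% and 14.4%), and in Cpt2PparaDKO livers 24 rose and 31 fell (18.6% and 24%, beside 14.9% and 17.6%). In Cpt1DKO livers 2 rose and 6 fell. The medians were -0.02 in Cpt1DKO livers, 0.06 in Cpt2KO livers, 0.02 in TKO livers and 0.01 in Cpt2PparaDKO livers. In the 3 lists of genes that build and fuse autophagosomes more genes fell than rose in each group without Cpt2, while their medians lay on both sides of 0. Of 16 initiation genes, 1 rose and 5 fell in Cpt2KO livers (median -0.14), 1 rose and 4 fell in TKO livers (median -0.09), and 0 rose and 6 fell in Cpt2PparaDKO livers (median -0.25). Of 13 conjugation genes, 1 rose and 5 fell in both Cpt2KO livers (median 0.09) and TKO livers (median 0.07), and 0 rose and 5 fell in Cpt2PparaDKO livers (median -0.24). Of 14 receptor and fusion genes, 1 rose and 4 fell in both Cpt2KO livers (median 0.09) and TKO livers (median 0.10), and 0 rose and 8 fell in Cpt2PparaDKO livers (median -0.39). Ulk1, the kinase that starts autophagy, fell in Cpt2PparaDKO livers (log2 fold change -1.04, SE 0.15, adjusted p = 2.35e-05), and Atg101, a subunit of its complex, fell in Cpt2KO livers (log2 fold change -1.03, SE 0.14, adjusted p = 1.55e-05), where Atg2a, a lipid transfer protein, rose (log2 fold change 0.62, SE 0.17, adjusted p = 0.0075). Atg4c, an ATG8 protease, fell in Cpt2KO (log2 fold change -0.84, SE 0.16, adjusted p = 0.000406) and Cpt2PparaDKO livers (log2 fold change -0.67, SE 0.16, adjusted p = 0.00273), and Map1lc3a, an LC3 paralogue, rose in Cpt2KO livers (log2 fold change 0.49, SE 0.12, adjusted p = 0.00317). Stx17, the fusion syntaxin of autophagosomes, fell in Cpt2KO (log2 fold change -0.57, SE 0.11, adjusted p = 0.000588) and Cpt2PparaDKO livers (log2 fold change -0.78, SE 0.11, adjusted p = 3.82e-05). Optn, a receptor for damaged mitochondria, rose in Cpt2KO livers (log2 fold change 0.58, SE 0.12, adjusted p = 0.000705) and fell in Cpt2PparaDKO livers (log2 fold change -0.57, SE 0.12, adjusted p = 0.000965).

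**Figure D5:**
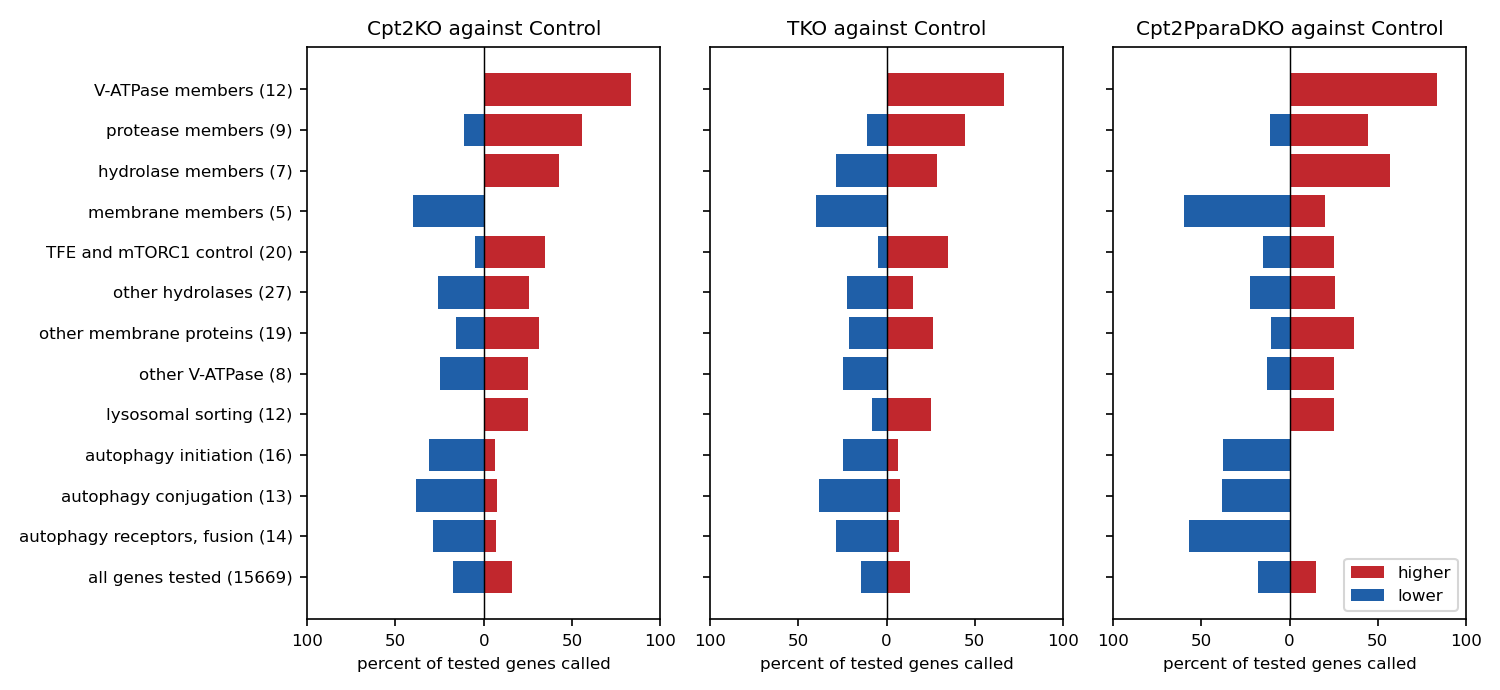
Bars give the percent of tested genes called higher (red, right) or lower (blue, left) than Control in each list, for Cpt2KO, TKO and Cpt2PparaDKO livers, with the number of genes tested in brackets and all genes tested as the last bar. V-ATPase members reach 83.3% higher in Cpt2KO and Cpt2PparaDKO livers, and the 3 autophagy lists lie mostly to the left, down to 57.1% lower for receptors and fusion in Cpt2PparaDKO livers.

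The plot of lists also shows the lysosomal genes outside the set, beside 16.2% of all genes higher and 17.2% lower in Cpt2KO livers and 14.9% higher and 17.6% lower in Cpt2PparaDKO livers. Of 27 other hydrolases, 7 rose and 7 fell in Cpt2KO livers (25.9% each) and 7 rose and 6 fell in Cpt2PparaDKO livers (25.9% and 22.2%). Galns, a sulfatase, rose in both (log2 fold change 1.00 and 1.14), and Ctsc, dipeptidyl peptidase 1, fell in both (-1.58 and -0.99). Of 19 other membrane proteins, 6 rose and 3 fell in Cpt2KO livers (31.6% and 15.8%) and 7 rose and 2 fell in Cpt2PparaDKO livers (36.8% and 10.5%). Cd63, a tetraspanin of late endosomes that macrophages also carry, averaged 48.6 CPM in Cpt2KO livers against 4.02 CPM in Control livers (log2 fold change 3.59, SE 0.37, adjusted p = 1.78e-06) and 47.9 CPM in Cpt2PparaDKO livers against 4.02 CPM in Control livers (log2 fold change 3.57, SE 0.37, adjusted p = 2.39e-06). Slc36a1, a lysosomal amino acid exporter, fell in Cpt2KO livers (log2 fold change -1.11, SE 0.21, adjusted p = 0.000442), and Tpcn1, an endolysosomal cation channel, fell in Cpt2PparaDKO livers (log2 fold change -0.96, SE 0.23, adjusted p = 0.00367).

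Of 8 tested V-ATPase genes outside the set, 2 rose and 2 fell in Cpt2KO livers (25% each, beside 16.2% and 17.2% of all genes), 0 rose and 2 fell in TKO livers (25% lower, beside 14.4%), and 2 rose and 1 fell in Cpt2PparaDKO livers (25% and 12.5%, beside 14.9% and 17.6%). Their medians were -0.31, -0.19 and -0.04 in Cpt2KO, TKO and Cpt2PparaDKO livers. Atp6v1g1, a stalk subunit, rose in Cpt2KO (log2 fold change 0.48, SE 0.13, adjusted p = 0.00601) and Cpt2PparaDKO livers (log2 fold change 0.61, SE 0.13, adjusted p = 0.000971). Atp6v0d2, an isoform known from osteoclasts and macrophages, averaged 0.105 CPM in Cpt2KO livers against 2.77 CPM in Control livers (adjusted p = 0.000775), and Atp6v0a2 fell in Cpt2PparaDKO livers (log2 fold change -0.60, SE 0.10, adjusted p = 0.000121). Of 12 lysosomal sorting genes, 3 rose and 0 fell in both Cpt2KO and Cpt2PparaDKO livers (25% higher, beside 16.2% and 14.9% of all genes), with Gga2, a Golgi adaptor, rising by 0.80 (SE 0.14, adjusted p = 0.000222) in Cpt2KO and 1.32 (SE 0.14, adjusted p = 1.39e-06) in Cpt2PparaDKO livers.

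Of 20 genes that control TFEB, TFE3 and mTORC1, 7 rose and 1 fell in Cpt2KO livers (35% and 5%, beside 16.2% and 17.2% of all genes), and 5 rose and 3 fell in Cpt2PparaDKO livers (25% and 15%, beside 14.9% and 17.6%). Rragd, a Rag GTPase through which mTORC1 reaches TFEB and TFE3 and which they induce, averaged 4.1 CPM in Cpt2KO livers against 1.34 CPM in Control livers (log2 fold change 1.61, SE 0.29, adjusted p = 0.000202), and 8.23 CPM in Cpt2PparaDKO livers against 1.34 CPM in Control livers (log2 fold change 2.61, SE 0.28, adjusted p = 1.36e-06). It was also higher in Cpt2PparaDKO than in Cpt2KO livers (log2 fold change 1.01, SE 0.26, adjusted p = 0.00686), where Tfeb was lower. Mtor itself averaged 76.9 CPM in Cpt2PparaDKO livers against 183 CPM in Cpt2KO livers (log2 fold change -1.25, SE 0.16, adjusted p = 4.32e-06), and it was the largest fall of the list in that comparison. That gap lies between mutant groups and does not give the change of Mtor against Control. Against Control, Lamtor2, a subunit of the scaffold of mTORC1 on lysosomes, fell in Cpt2KO livers (log2 fold change -0.44, SE 0.12, adjusted p = 0.00872). In Cpt2PparaDKO livers the largest called fall of the list against Control was that of Rptor, the mTORC1 subunit raptor (log2 fold change -0.48, SE 0.12, adjusted p = 0.00319).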

How the data were processed

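RNA was extracted from flash-frozen liver with TRIzol and RNeasy columns, and libraries were made and sequenced at Novogene, per the labels. The authors deposited raw counts per gene for 20 libraries and FPKM made from them. HISAT2 and the builds GRCm39 and mm39 are named in the submitters' processing notes; the sources used here name no counter, strand setting or annotation release. The deposited FPKM equal the count divided by gene length and a constant per sample, and served only to compare levels between genes. The authors' tables of comparisons were not used.

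Counts were normalised by TMM and tested with edgeR 4.0.16 (R 4.3.3) by the quasi-likelihood F test with robust dispersions, in 1 fit of all 20 libraries after filterByExpr (minimum count 10), which kept 15669 genes. P-values were adjusted by Benjamini-Hochberg within each comparison, and calls were made at 0.05. Every adjusted p in the text comes from this fit unless another tool is named. Levels are TMM-scaled CPM. Intervals are 95% intervals of the fit. The test was tried on simulated counts first, in which all genes had 1 common spread, unlike the data. It recovered 10% of 1.5-fold, 36% of 2-fold, 100% of 3-fold and 96% of 4-fold changes, and 5 of its 126 calls were false. A member that was not called may therefore still have changed by a small amount. Promoters came from RefSeq (GRCm38.p6) and gene positions from the deposited table (GRCm39).

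The members and the lists were chosen with earlier results of these data known. Sample values are given for Tfeb, Tfe3, Lamp1, Ctsd, Sqstm1, Map1lc3b and Gabarapl1, and for the 5 called members with the largest rise and the 5 with the largest fall in each mutant group against Control and in Cpt2PparaDKO against Cpt2KO. In other comparisons the 3 largest called rises and falls are named. Any other member named with values was chosen after its values were seen. Of each other list the called genes with the largest rise and fall are named for Cpt2KO and Cpt2PparaDKO livers against Control. Rragd and Mtor are also given for Cpt2PparaDKO against Cpt2KO livers. Alternatives were other size factors, DESeq2 1.42.0, no filter on low counts, the replicate number as a block, sex as a term, leaving out the 2 libraries with abundant Xist, fits on the compared groups alone and leaving out each library. No batch is given in the labels. Counting intervals cover counting error only.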

Additional observations from a re-analysis of the deposited data

Results flagged for a closer look

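For each member, a group of 4 libraries was marked where its highest or lowest library stood apart by more than Dixon's 95% critical value, and 13 of 205 groups were. Chance marks about 1 in 20 groups. Of the 13, 3 were in Cpt2PparaDKO replicate 4, where Ctsl had 3690 CPM, Grn had 669 CPM and Neu1 had 62.4 CPM. That library also stood apart from its group outside the members. Chi-square per degree of freedom between the counts of paired libraries was 151, 123 and 130 with replicates 1, 2 and 3. It was 11.5, 43.2 and 17.7 in the pairs among those replicates. Cpt1a had 468 CPM in replicate 4, against 1010, 962 and 920 CPM in replicates 1, 2 and 3. Cpt2KO replicate 4 had 110 CPM of Atp6v1b2 and 123 CPM of Tpp1, and Cpt2KO replicate 2 had 276 CPM of Ctsa. In TKO replicate 3 Atp6v0c had 90 CPM. In Cpt1DKO livers Glb1 had 8.67 CPM in replicate 1 and Ctsk 1.12 CPM in replicate 3. In Control livers Lamp1 had 541 CPM in replicate 1, Gusb had 43.4 CPM in replicate 2, and replicate 3 had 68.2 CPM of Atp6v0b and 397 CPM of Gabarapl1. The effect of Cpt2 loss on Hexa differed with Cpt1, by -0.67 on the log2 scale where Cpt1 was absent relative to where it was present, by the interaction test.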

How the results depend on the processing

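The counts of members and of all genes called against Control in Cpt2KO, TKO and Cpt2PparaDKO livers stayed within 1.5 times of the reported ones in every alternative. Calls kept in every fit that left out 1 library were 0 of 3 in Cpt1DKO against Control, 20 of 24 in Cpt2KO, 15 of 22 in TKO and 21 of 28 in Cpt2PparaDKO livers, 7 of 15 in Cpt2KO against Cpt1DKO, 1 of 1 in TKO against Cpt1DKO and 8 of 16 in Cpt2PparaDKO against Cpt2KO livers. The larger movements follow, and the cause was not tested. In Cpt1DKO against Control (3 members, 869 genes), members called were 5 with upper-quartile factors, 1 with no filter, 6 with sex as a term, 10 without the 2 libraries with abundant Xist, 8 with only the groups compared and 9 by DESeq2. The last 3 settings called 1581, 1442 and 1417 genes, and fits without 1 library 0 to 5 members and 288 to 1188 genes. In Cpt2KO against Cpt1DKO (15, 2212), only the groups compared gave 6 members and 1344 genes, and fits without 1 library 8 to 17 and 1192 to 2517. In Cpt2PparaDKO against Cpt2KO (16, 3822), only the groups compared gave 8 and 2495, and fits without 1 library 12 to 16 and 2997 to 4075. In TKO against Cpt1DKO (1, 729), members called were 2 with the replicate block, 2 with sex as a term, 4 without the 2 libraries, 3 with only the groups compared and 4 by DESeq2, with 1391 genes without the 2 libraries and 1267 by DESeq2, and fits without 1 library gave 1 to 2 and 278 to 898. In TKO against Cpt2KO (0, 8), genes called were 5 with the replicate block, 16 without the 2 libraries, 5 with only the groups compared, 57 by DESeq2 and 3 to 10 without 1 library. The interaction (1, 423) called 0 members with no filter or the replicate block, 8 without the 2 libraries, 2 with only the groups compared and 10 by DESeq2, with 973 genes without the 2 libraries and 934 by DESeq2, and 0 to 5 and 178 to 585 without 1 library.

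Some uncalled log2 fold changes near 0 changed sign. Tfeb in TKO against Cpt1DKO was 0.01 with no filter. In TKO against Cpt2KO, Gabarapl1 was 0.01 and Sqstm1 0.04 with the replicate block, Sqstm1 was 0.01 with sex as a term, Lamp1 was 0.00 with upper-quartile factors, and Tfe3 was 0 with no filter and with only the groups compared. Sqstm1 in Cpt2PparaDKO against Cpt2KO was -0.43 without the 2 libraries. Without 1 library, ranges in TKO against Cpt2KO were -0.13 to 0.13 for Gabarapl1, -0.01 to 0.04 for Lamp1, -0.13 to 0.08 for Map1lc3b, -0.22 to 0.11 for Sqstm1 and -0.08 to 0.06 for Tfe3. They were -0.01 to 0.22 for Tfe3 and -0.18 to 0.07 for Tfeb in TKO against Cpt1DKO, -0.06 to 0.22 for Gabarapl1 and 0 to 0.23 for Tfe3 in Cpt2KO against Cpt1DKO, -0.22 to 0.33 for Sqstm1 and -0.12 to 0.02 for Tfe3 in Cpt2PparaDKO against Cpt2KO, and -0.20 to 0.07 for Gabarapl1 in the interaction. Same-numbered libraries deviated with r from -0.201 to 0.233, so the numbers did not pair the libraries. Other size factors shifted the median of all genes by at most 0.065 on the log2 scale. Ctsk did not pass 2 CPM, and at that depth small changes were not detectable.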
